A study of Mus musculus with 72 samples.

Results

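The liver packages triglyceride and cholesteryl ester into very low density lipoprotein (VLDL), and the transcripts described here encode the proteins that build, carry and dock with that particle. The 10 genes are Apob, Mttp and Tm6sf2, which act in particle assembly, and the apolipoprotein genes Apoa1, Apoa2, Apoa4, Apoa5, Apoc2, Apoc3 and Apoe. They were chosen by gene symbol from the gene count tables: 10 of the 22823 rows of the liver table and 3 of the 15759 rows of the table of the suprachiasmatic nucleus (SCN), the hypothalamic clock nucleus, where only Apoa2, Apoe and Mttp were matched. The other 7 genes were not analysed here in the SCN.

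The libraries came from C57BL/6J mice bought at 8 to 12 weeks of age and fed, with free access, either a methionine- and choline-deficient (MCD) diet, TD.220158, or an isocaloric control diet, TD.220157. All mice were housed singly under 12 h of light and 12 h of dark for 10 days, then moved to constant darkness and killed on day 11 at 6 circadian times 4 h apart, CT00 to CT20, so every group shared the darkness and the single housing. Each diet and time had 3 mice by the sample labels, 2 males and 1 female, although the protocol text mentions males only. That gave 18 control and 18 MCD libraries from the left lobe of the liver and the same numbers from the laser-microdissected SCN, 72 in all. Short feeding of an MCD diet is a model of hepatic steatosis that lacks the obesity of human fatty liver disease.

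In hepatocytes, microsomal triglyceride transfer protein, the product of Mttp, loads lipid onto apolipoprotein B while that protein is being made, and TM6SF2, a membrane protein of the endoplasmic reticulum and Golgi, is needed for full lipidation of the particle. Phosphatidylcholine coats the particle, and choline and methionine both feed its synthesis, so VLDL secretion is a textbook site of action of an MCD diet. In plasma the particle exchanges small apolipoproteins with high density lipoprotein (HDL): APOC2 activates lipoprotein lipase, APOA5 promotes and APOC3 restrains triglyceride clearance, APOA4 is secreted with triglyceride-rich particles, and APOE is the ligand for uptake by liver receptors.

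Promoter sequences are shown for the 3 genes that rose most on the MCD diet, for Apoa1, a neighbour of Apoa4 that fell, and for both starts of Apoa2, the gene whose exon bins differed most by diet. Each run is the 250 bases before a RefSeq transcript start, on build GRCm38.p6, written 5′ to 3′ on the strand of the gene. Capitals mark matches to 4 short motifs, each searched on both strands. The HNF4-type site is CAAAGTCCA or CAAAGTTCA. The E-box searched, a motif that clock and lipogenic factors are known to bind, is CACGTG. The nuclear receptor half-site is read as AGGTCA, and the TATA box, which helps to place a transcript start, is TATAAA. None of the motifs overlapped another in the windows shown, and a half-site on the opposite strand appears as its reverse complement. The windows are Apoa4 at chr9:46240594-46240843 on the plus strand, Apoa5 start 1 at chr9:46268358-46268607 on the plus strand, Apoc2 at chr7:19677942-19678191 on the minus strand, Apoa1 at chr9:46228380-46228629 on the plus strand, and Apoa2 start 1 at chr1:171224804-171225053 and start 2 at chr1:171221314-171221563, both on the plus strand.
Apoa4: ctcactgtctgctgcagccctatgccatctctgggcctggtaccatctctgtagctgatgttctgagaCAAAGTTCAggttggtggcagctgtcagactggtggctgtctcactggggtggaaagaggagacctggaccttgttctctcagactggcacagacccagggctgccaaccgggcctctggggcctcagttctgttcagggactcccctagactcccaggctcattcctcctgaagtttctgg
Apoa5 start 1: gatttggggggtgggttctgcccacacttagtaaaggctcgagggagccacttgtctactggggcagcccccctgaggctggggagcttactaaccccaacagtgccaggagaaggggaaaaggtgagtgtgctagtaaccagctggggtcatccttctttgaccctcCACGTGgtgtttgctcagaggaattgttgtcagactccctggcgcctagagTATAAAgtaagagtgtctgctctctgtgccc
Apoc2: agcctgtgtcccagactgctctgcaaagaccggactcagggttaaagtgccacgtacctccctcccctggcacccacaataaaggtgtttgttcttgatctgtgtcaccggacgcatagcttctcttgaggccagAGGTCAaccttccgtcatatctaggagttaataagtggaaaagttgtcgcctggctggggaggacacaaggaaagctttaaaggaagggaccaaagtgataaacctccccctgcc
Apoa1: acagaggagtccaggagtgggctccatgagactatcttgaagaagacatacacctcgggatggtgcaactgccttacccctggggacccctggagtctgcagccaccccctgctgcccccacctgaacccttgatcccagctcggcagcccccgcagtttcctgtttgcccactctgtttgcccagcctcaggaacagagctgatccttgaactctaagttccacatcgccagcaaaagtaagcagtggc
Apoa2 start 1: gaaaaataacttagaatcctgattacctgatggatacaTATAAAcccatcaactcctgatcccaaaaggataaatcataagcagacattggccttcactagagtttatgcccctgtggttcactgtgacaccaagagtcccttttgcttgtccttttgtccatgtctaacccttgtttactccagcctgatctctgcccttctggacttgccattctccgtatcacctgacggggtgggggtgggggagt
Apoa2 start 2: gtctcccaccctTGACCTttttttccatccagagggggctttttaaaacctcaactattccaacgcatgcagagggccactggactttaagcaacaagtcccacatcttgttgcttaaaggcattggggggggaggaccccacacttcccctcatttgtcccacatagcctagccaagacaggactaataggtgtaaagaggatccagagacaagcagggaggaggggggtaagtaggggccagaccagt

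The Apoa4 window held 1 HNF4-type site, 182 bases before the start, a match found in 0.715% of 32851 RefSeq promoter windows of the same length. The Apoa5 window held CACGTG 82 bases and TATAAA 31 bases before the start, matches found in 6.02% and 12.4% of windows. The Apoc2 window held AGGTCA 115 bases before the start, and the Apoa2 start 2 window held it on the minus strand 238 bases before the start, against 14.0% of windows. The Apoa1 window held none of these letters, and Apoa2 start 1 held TATAAA 212 bases before the start. A window was also read for Mttp, with no match, and for Apob, with TATAAA 60 bases before the start. For Apoe, start 2 held TATAAA 96 bases before the start and, on the minus strand, 100 bases before it. Apoe starts 1 and 3 held no match. Tm6sf2 and Apoc3 are named without a window. A match describes letters in the window and was not tested as a binding site.

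On the GRCm38 annotation, Apoa1 (chr9:46228580-46230466), Apoc3 (chr9:46232933-46235636), Apoa4 (chr9:46240696-46243459) and Apoa5 (chr9:46268633-46271919) sit within 43.34 kb of chromosome 9, with Apoc3 on the minus strand and the other 3 on the plus strand. Apoc2 (chr7:19671579-19677941) and Apoe (chr7:19696109-19699188) sit within a 27.61 kb cluster on the minus strand of chromosome 7 that also holds Apoc1 and Apoc4. Apob lies at chr12:7977648-8016835 on the plus strand, Mttp at chr3:138089854-138144968 on the minus strand, Tm6sf2 at chr8:70072924-70080066 on the plus strand and Apoa2 at chr1:171225054-171226379 on the plus strand.

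Depth was 52.6 to 86.7 M counts (M, 1e6) per liver library (median 64.4 M) and, in the SCN, 23.3 to 79.8 M (median 57.0 M). The 10 genes took 3.42% ± 0.18 (SD, n = 18) of all liver counts on control and 3.91% ± 0.18 (n = 18) on MCD. Levels below are CPM, counts per 1e6 counts of the library, with trimmed-mean (TMM) scaling, fold values are ratios of group means, and log2 changes with their standard errors (SE) and adjusted p-values come from edgeR's quasi-likelihood test with a term for sex and Benjamini-Hochberg adjustment over 20249 liver genes, with 0.05 as the threshold for a call. The TMM factors differed between diets, 0.917 ± 0.074 on control and 1.096 ± 0.079 on MCD, and scaling by library totals alone moved the median log2 change of all genes from 0.02 to 0.27. All 8 hepatocyte markers were detected in the liver libraries, with a summed level of 76502 to 122491 CPM on control and 55816 to 122398 CPM on MCD, and 4 of them, Ttr, Serpina1c, Cps1 and Ass1, fell on MCD while none rose. Of 8 macrophage markers measured, 7 rose (269 to 583 CPM summed on control, 366 to 756 on MCD), as did 2 of 5 stellate cell and 3 of 5 endothelial markers, while 4 of 5 erythrocyte markers fell. The part of cell makeup in the results below was not tested, and in bulk RNA fewer cells of a type and less RNA per cell cannot be told apart.

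Liver libraries also fell into a low and a high class for the mitochondrial transcript mt-Nd6, with 8 low and 10 high on control and 13 low and 5 high on MCD. The classes differed beyond that transcript. In the 34 liver exon files used, counts outside any exon bin made up 10.4 to 15.3% in the high class and 3.98 to 4.91% in the low class. In the liver 3 libraries stood apart. The first of the 2 columns labelled control CT08 that share a name, called CT08 (a), had the highest Apoa4 level of all 18 control libraries and the lowest level of Mttp, Apoc3, Apoa2 and Apoe, and for each of these 5 genes its level lay inside the range of the MCD libraries. Its TMM factor was 1.18, against 0.841 to 0.986 in the other 17 controls. That was also above 16 of the 18 MCD libraries and below only the other 2 libraries that stood apart. Whether its label is right was not tested. The diet change of these 5 genes is given with and without it. The other 2 were MCD CT04 replicate 1 and MCD CT12 replicate 2, with TMM factors of 1.28 and 1.27 against 0.986 to 1.1503 in the other 16 MCD libraries and with the 2 lowest MCD levels of Apob, Mttp, Apoa2 and Apoc3. Leaving out all 3 is an alternative added after seeing the data.

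Per kilobase of exon, the scale on which different genes can be compared, Apoa2 (7532 ± 1101 CPM per kb, SD, n = 18) and Apoe (6928 ± 594) led in control liver and their spreads overlapped. Apoa1 followed at 4882 ± 1082, then Apoc3 at 1321 ± 351, and then Apob at 624 ± 62.2 and Apoa5 at 544 ± 103, whose spreads overlapped. Apoa4, at 327 ± 224 CPM per kb, overlapped the spread of Apoa5. Mttp (71.1 ± 12.1) and Apoc2 (64.1 ± 25.2) were not separable, and Tm6sf2 was lowest at 17.1 ± 6.4. On MCD, Apoa4 moved from the seventh to the fourth place at 1277 ± 500 CPM per kb, a spread that held the Apoc3 mean (953 ± 195), and Apoc2 (119 ± 37.4) stood above Mttp (50.7 ± 7.1).

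**Figure D1:**
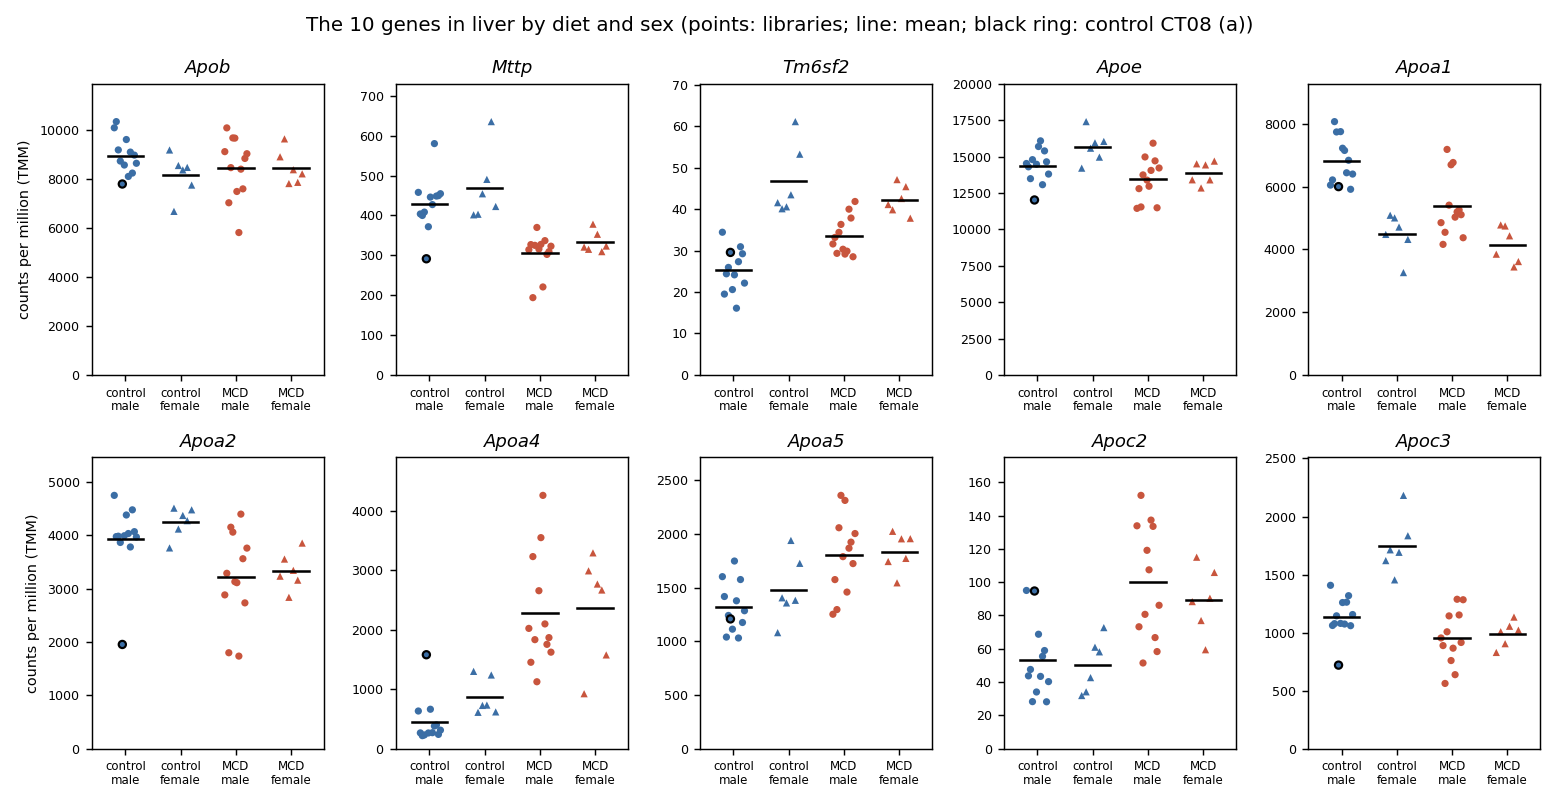
Level of each of the 10 genes in liver (vertical axis, CPM with TMM scaling, 1 panel per gene) in control and MCD libraries of each sex; points are libraries, the line is the mean, and a black ring marks control CT08 (a). Apoa4 averaged 593 CPM on control and 2317 CPM on MCD, whereas the Apob groups, 8693 and 8450 CPM, lay across each other.

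The diet comparison asked how the lipoprotein genes of the liver differed after the MCD diet. In the liver 9 of the 10 genes passed the test, 4 higher and 5 lower on MCD, with a median log2 change of −0.08 over the 10. With library totals alone 8 were called, 6 higher and 2 lower: Apoa1 and Apoa2 did not pass, Apob passed as higher, and Apoe passed in the opposite direction. On that scale 12173 of 20249 genes were called, 87.3% of them higher. The background was high with TMM too: 46.6% of all genes tested were called (9426 of 20249, 5130 higher and 4296 lower), with a median of 0.02. The directions and values that follow are with TMM. Apoa4, Apoc2, Apoa5 and Tm6sf2 rose, and Mttp, Apoc3, Apoa2, Apoa1 and Apoe fell. Without CT08 (a) these 9 genes were again called, in the same directions. Without all 3 libraries that stood apart the same 9 were called, at 2.18 (Apoa4), 0.88 (Apoc2), 0.45 (Apoa5), 0.23 (Tm6sf2, adjusted p = 0.0489), −0.45 (Mttp), −0.43 (Apoc3), −0.28 (Apoa2), −0.24 (Apoa1) and −0.14 (Apoe, adjusted p = 0.00929), and Apob was at −0.02 (0.808).

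Apob encodes the single structural protein of each VLDL particle. Its level ran from 6681 to 10348 CPM on control (median 8610) and from 5816 to 10092 CPM on MCD (median 8437), and the groups lay across each other. The means were 8693 ± 866 and 8450 ± 1076 CPM (SD, n = 18 each). The log2 difference was −0.04 ± 0.06 (SE, adjusted p = 0.576 by edgeR), and with library totals alone it turned to 0.21 (adjusted p = 4.88e-05), still below the all-gene median of 0.27 on that scale.

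Mttp, whose product transfers triglyceride to nascent apolipoprotein B, fell on the MCD diet. Control libraries held 291 to 635 CPM (median 437) and MCD libraries 194 to 378 CPM (median 322), and 16 of 18 control libraries were above every MCD library. The mean fell from 441 ± 74.9 to 315 ± 44.2 CPM (SD, n = 18 each), 0.713 of control, a log2 change of −0.48 ± 0.07 (SE, adjusted p = 1.27e-06 by edgeR). The ranges did not overlap among females, nor among males once CT08 (a) was left out, and the mean was lower at 6 of 6 times. The fall passed the test under 14 of 14 alternative settings, from −0.52 to −0.23, and after leaving out any 1 of 36 libraries. The smallest value, −0.23 (adjusted p = 8.74e-05), came with library totals alone, and the value without CT08 (a) was −0.51. Levels were alike in both mt-Nd6 classes: 441 in the high and 441 in the low control class, and 299.6 and 320.3 CPM on MCD. The 2 lowest MCD libraries, CT04 replicate 1 (194 CPM) and CT12 replicate 2 (221 CPM), were the 2 MCD libraries that stood apart. Mttp shares exon sequence with Trmt10a on the opposite strand, which rose from 4.29 ± 0.88 to 6.53 ± 2.22 CPM (log2 0.55 ± 0.09, adjusted p = 2.87e-05 by edgeR), and the split of reads between them was not tested.

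Tm6sf2, the lowest of the 10 per kilobase, ran at 16.1 to 61.1 CPM on control (median 29.4) and 28.5 to 47.1 CPM on MCD (median 37.1), with every MCD value inside the control range. The mean of 32.5 ± 12.1 CPM became 36.4 ± 5.9 CPM, a log2 change of 0.23 ± 0.09 (SE, n = 18 each, adjusted p = 0.0381 by edgeR). Without all of replicate 2 the change was 0.05 (adjusted p = 0.683), and without all of replicate 1 it was 0.23 (0.175). The call was also lost without a term for sex (0.17, adjusted p = 0.346), with a term for the mt-Nd6 class (0.19, adjusted p = 0.0918), and after leaving out any 1 of 17 of the 36 libraries (0.18 to 0.27, adjusted p 0.0150 to 0.0872, over the 36). The change was 0.47 (adjusted p = 1.48e-04) with library totals alone. Males had 25.3 ± 5.3 CPM on control and 33.5 ± 4.5 on MCD, and females 46.7 ± 8.6 and 42.3 ± 3.5, so the means lay in opposite directions in the sexes.

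Apoa4 encodes an exchangeable apolipoprotein of triglyceride-rich particles and HDL, and its change was the largest of the 10. Control libraries ran from 219 to 1580 CPM (median 505) and MCD libraries from 924 to 4262 CPM (median 2061). All but 4 MCD libraries, 14 of 18, lay above every control library, and 16 of 18 did without CT08 (a). The mean rose 3.90-fold, from 593 ± 407 to 2317 ± 908 CPM (SD, n = 18 each), a log2 change of 2.07 ± 0.23 (SE, adjusted p = 7.56e-08 by edgeR), or 2.27 without CT08 (a). In males without that library all 12 MCD values were above all 11 control values, and in females 5 of 6 MCD values were. The rise was called under 14 of 14 alternative settings and in 36 of 36 fits that left out 1 library. Among low mt-Nd6 libraries the means were 752 and 2287 CPM, and among high ones 467 and 2396 CPM.

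Apoa5, a liver-made apolipoprotein that promotes triglyceride clearance, rose from 1373 ± 261 CPM (1031 to 1941, median 1368) to 1813 ± 307 CPM (1253 to 2360, median 1829). The groups overlapped, with 7 of 18 MCD libraries above every control library. The log2 change was 0.41 ± 0.09 (SE, n = 18 each, adjusted p = 2.98e-04 by edgeR), the mean was higher at 6 of 6 times, and the call held in 14 of 14 alternative settings, with a log2 change of 0.65 under library totals alone.

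Apoa1 and Apoa2 encode the main structural proteins of HDL, and both fell relative to the other genes. Apoa1 ran from 3259 to 8068 CPM on control (median 6128) and from 3438 to 7182 CPM on MCD (median 4813), with wide overlap. Its mean fell from 6034 ± 1338 CPM to 4966 ± 1043, a log2 difference of −0.27 ± 0.07 (SE, n = 18 each, adjusted p = 0.00133 by edgeR), and with library totals alone the difference was −0.01 (adjusted p = 0.871). Within the males, 9 of 12 MCD values were below every control value, while the females of both diets overlapped.

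Apoa2 ran from 1955 to 4753 CPM on control (median 4054) and from 1737 to 4401 CPM on MCD (median 3263). The lowest control value was CT08 (a), and without it 14 of 18 MCD libraries lay below every control library. The mean fell from 4044 ± 591 CPM to 3258 ± 713, and the log2 change was −0.31 ± 0.11 (SE, n = 18 each, adjusted p = 0.0162 by edgeR), or −0.37 (adjusted p = 0.00180) without CT08 (a). The call was lost with library totals alone (−0.06, adjusted p = 0.499) and when all libraries of one replicate number were left out (adjusted p = 0.0707, 0.0661 and 0.117).

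**Figure D2:**
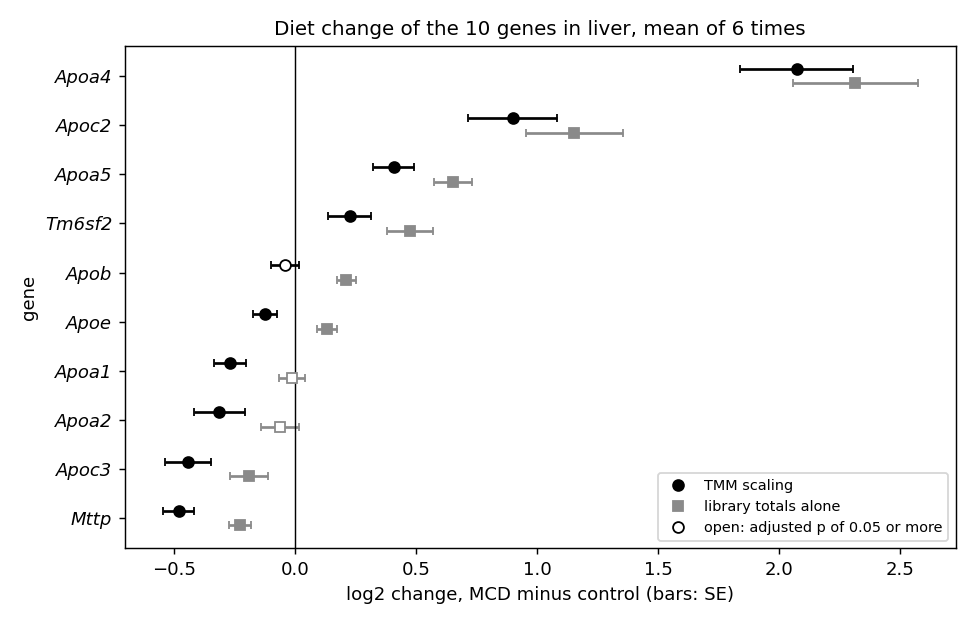
Log2 change on MCD in liver with its SE for each of the 10 genes (horizontal axis; genes on the vertical axis), from TMM scaling (circles) and from library totals alone (squares), filled where the adjusted p is under 0.05. Apoa4 (2.07), Apoc2 (0.90), Apoa5 (0.41) and Mttp (−0.48) kept their sides of 0 under both scalings, whereas Apoe (−0.12) and Apob (−0.04) changed sides, to 0.13 and 0.21.

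The genes of the lipase activator APOC2 and of the lipase inhibitor APOC3 moved in opposite directions. Apoc2 ran from 28.1 to 95.0 CPM on control (median 45.6) and from 51.4 to 152 CPM on MCD (median 89.3). Its mean rose 1.85-fold, from 52.1 ± 20.5 to 96.4 ± 30.4 CPM (SD, n = 18 each), with 8 of 18 MCD libraries above every control library. The log2 change was 0.90 ± 0.18 (SE, adjusted p = 2.53e-04 by edgeR), and it was called in 14 of 14 alternative settings and 36 of 36 fits without 1 library. In the low mt-Nd6 class the means were 65.7 CPM on control and 98.0 on MCD, and in the high class 41.3 and 92.4 CPM. In the deposited exon bins Apoc2 had only 2 bins that could be tested, at 0.714 and 1.27 CPM on control against 52.1 CPM for the gene, and the annotation places another gene, Gm44805, over its exons, which was not analysed here.

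Apoc3, which slows lipase action and particle uptake, ran from 720 to 2182 CPM on control (median 1260) and from 562 to 1287 CPM on MCD (median 980). Its mean of 1340 ± 355 CPM fell to 967 ± 198, with a log2 change of −0.44 ± 0.10 (SE, n = 18 each, adjusted p = 4.15e-04 by edgeR). All 6 control females lay above all 6 MCD females (1749 ± 246 and 992 ± 109 CPM), while males overlapped (1135 ± 174 and 954 ± 234 CPM). In males 2 of 12 MCD libraries lay below every control, and 8 of 12 did without CT08 (a). Without that library the log2 change over both sexes was −0.48 (adjusted p = 8.12e-05). The change was −0.19 (adjusted p = 0.0369) with library totals alone. Without replicate 3, which is the female of each group, the log2 change was −0.27 (adjusted p = 0.0677).

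Apoe, the receptor ligand of remnant particles, shared the top of the per-kilobase order with Apoa2. It ran from 12029 to 17418 CPM on control (median 14728) and from 11452 to 15935 CPM on MCD (median 13585), with wide overlap. Its mean fell from 14813 ± 1269 to 13595 ± 1260 CPM (log2 −0.12 ± 0.05, SE, n = 18 each, adjusted p = 0.0444 by edgeR), and with library totals alone the change was in the other direction, 0.13 (adjusted p = 0.00717). Without CT08 (a) it was −0.15 (adjusted p = 0.0102), with 6 rather than 3 of 18 MCD libraries below every control. The TMM call was lost after leaving out any 1 of 16 of the 36 libraries (adjusted p 0.0102 to 0.0813 over the 36). It was also lost without the low-count filter and without all of replicate 1, 2 or 3, with an adjusted p of up to 0.235 by edgeR.

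Neighbours within a cluster did not move together. On chromosome 9, Apoa4 and Apoa5 rose while Apoa1 and Apoc3 fell on the TMM scale, although for Apoa1 the difference was −0.01 (adjusted p = 0.871) with library totals alone. On chromosome 7, Apoc2 rose while Apoc4 (log2 −0.31), Apoc1 (−0.55) and Apoe (−0.12) fell on the TMM scale, with Apoe higher by 0.13 under library totals. Gm47528 and Gm10680 share exon sequence with Apoa4 in the annotation. Gm10680 had 4.11 ± 5.25 CPM on control and 11.6 ± 18.2 on MCD (adjusted p = 0.277 by edgeR), and Gm47528 had 0.777 and 1.55 CPM (adjusted p = 0.450).

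The diet comparison was also made at each time, 3 libraries against 3, within the same model. The share of all genes called was 12.6% (CT00), 18.2% (CT04), 1.30% (CT08), 15.2% (CT12), 12.5% (CT16) and 11.3% (CT20), and among the 10 genes there were 8 calls, for Apoa4, Mttp and Apoc2. Apoa4 at CT04 read 219, 230 and 611 CPM in the controls, while the MCD libraries read 3232, 1834 and 2992. Those groups did not overlap, and the log2 change was 3.04 ± 0.59 (SE, adjusted p = 9.60e-04 by edgeR), the largest of the 6 times. At CT12 the controls read 663, 269 and 733 CPM, while the MCD libraries read 3551, 4262 and 2770 (log2 2.77 ± 0.58, adjusted p = 0.00265). The CT04 call was lost without all libraries of replicate 1 (2.59, adjusted p = 0.111), and the CT12 call without all of replicate 1 (3.03, 0.0765) or 2 (2.21, 0.184), settings that leave 2 libraries a group. The changes at CT16 (1.81 ± 0.56, adjusted p = 0.0336) and CT20 (2.24 ± 0.57, adjusted p = 0.0116) also passed, but the CT16 call was lost after leaving out any 1 of its libraries other than control CT16 replicate 3 (adjusted p 0.0641 to 0.149) and the CT20 call without control CT20 replicate 1 (0.0629) or 2 (0.0517). At CT08 the log2 change was 1.36 (adjusted p = 0.275) with CT08 (a), whose Apoa4 level of 1580 CPM stood beside 264 and 727 CPM in the other 2 controls, and 2.44 ± 0.57 (adjusted p = 0.0112) without it.

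Mttp was called lower at CT04, CT12 and CT16. At CT16 control libraries read 580, 449 and 635 CPM and MCD libraries 337, 302 and 309 CPM, with no overlap. That log2 change was −0.80 ± 0.16 (SE, adjusted p = 0.00191 by edgeR), and the call was lost without all of replicate 1 (0.0519) or 3 (0.0751). The CT04 change (−0.54 ± 0.16, adjusted p = 0.0195) was lost without MCD CT04 replicate 1 (0.155), control CT04 replicate 1 (0.0615) or control CT04 replicate 2 (0.0705), and the CT12 change (−0.60 ± 0.16, adjusted p = 0.0131) without MCD CT12 replicate 2 (0.106). Neither passed with library totals alone (−0.26, adjusted p = 0.0715, at CT04 and −0.25, adjusted p = 0.0725, at CT12), and the CT16 change was −0.53 (0.00147). Apoc2 passed only at CT04 among the times tested, with control values of 47.6, 28.2 and 34.1 CPM beside MCD values of 152, 51.4 and 115 (log2 1.54 ± 0.46, adjusted p = 0.0208), and lost the call without MCD CT04 replicate 1 (0.134) or 3 (0.0590), or control CT04 replicate 2 (0.0974) or 3 (0.0589). Without CT08 (a) the number of calls over the 6 times was 12, and without all 3 libraries that stood apart it was 15: Mttp at every time but CT08, Apoa4 at every time but CT00, Apoa1 at CT00 and CT20, Apoa2 and Apoc3 at CT00 and Apoa5 at CT04, with the Apoc2 call at CT04 lost (1.16, adjusted p = 0.097). Over all genes, calls from CT00 to CT20 were 3059, 4249, 1212, 3810, 3160 and 2845 without CT08 (a). With all libraries they were 2550, 3679, 263, 3082, 2531 and 2288. Without the 3 libraries they were 3826 at CT00, 3019 at CT04, 1904 at CT08, 4126 at CT16 and 3809 at CT20. Without all of replicate 1, 2 or 3 the 8 calls became 0, 2 and 3, and fewer of all genes were called at every time. The differences between times were tested only as a 24 h rhythm, below.

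**Figure D3:**
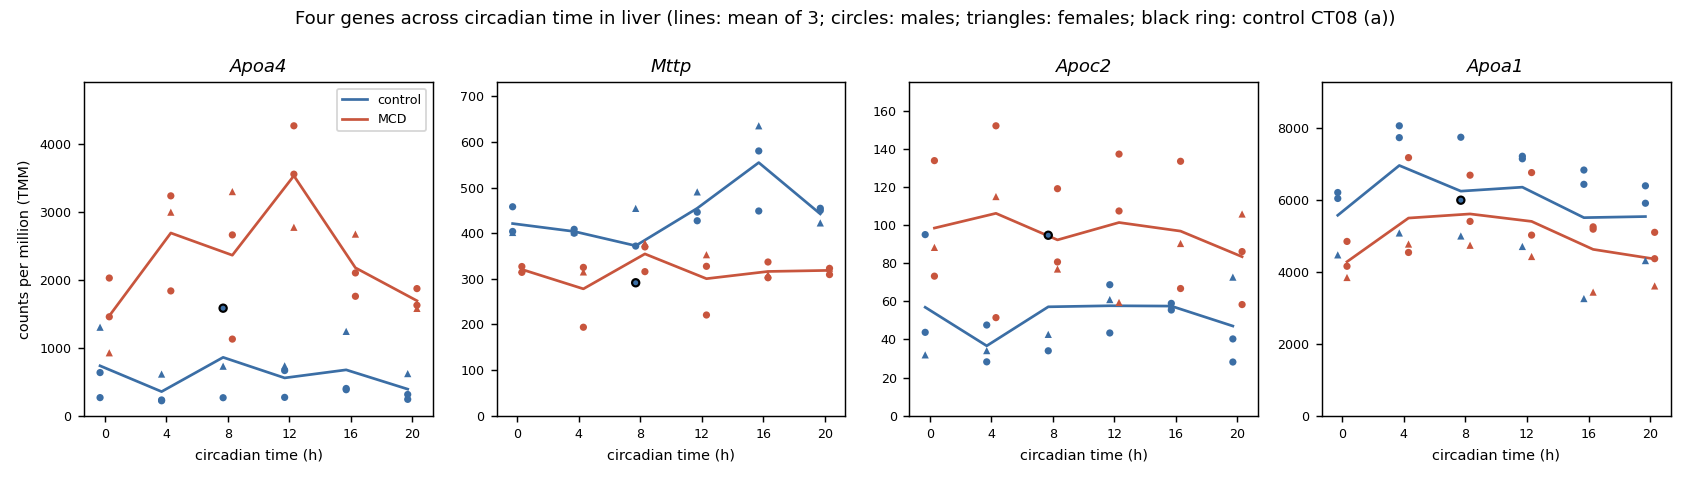
Liver level (vertical axis, CPM with TMM scaling) of Apoa4, Mttp, Apoc2 and Apoa1 against circadian time in hours, for control and MCD; circles are males, triangles females, and lines join the means of 3 libraries. Control Mttp was highest at CT16 (580, 449 and 635 CPM), and its mean on MCD lay below the control mean at all 6 times.

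A 24 h rhythm was tested by a joint cosine and sine term, with the range taken as peak to trough on the log2 scale. On control none of the 10 genes passed, against 17.8% of all genes. Mttp came nearest, with a range of 0.43, a peak at 16.8 h and an adjusted p of 0.0559 by edgeR, which was 0.0195 with DESeq2, 0.0469 with relative log expression (RLE) factors in edgeR and 0.0366 with library totals alone. It was also under 0.05 without MCD CT04 replicate 1 (0.0214) or 2 (0.0428), MCD CT12 replicate 2 (0.0310), control CT08 replicate 3 (0.0299), control CT16 replicate 2 (0.0309) or control CT20 replicate 3 (0.0452), and without the 3 libraries that stood apart (0.00532), where Apoa1 passed as well (0.0255). On MCD, 28.2% of all genes and 1 of the 10 were called. This was Apoa1, with a range of 0.44 and a peak at 8.25 h (adjusted p = 0.0327 by edgeR), a call lost without a term for sex (0.289) and without MCD CT08 replicate 2 (0.0772), MCD CT08 replicate 3 (0.0788) or MCD CT20 replicate 2 (0.0943). Mttp on MCD had a range of 0.05 (adjusted p = 0.958) and Apoa4 one of 0.95 (adjusted p = 0.251). The rhythm differed between diets for none of the 10 by edgeR, against 4.87% of all genes, and for Mttp that test gave an adjusted p of 0.397, so a loss of the Mttp rhythm on MCD was not shown.

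Sex was compared across both diets with 12 females and 24 males, and 9.44% of all genes were called. Among the 10 genes, Tm6sf2 and Apoc3 were higher and Apoa1 lower in females. Tm6sf2 differed by 0.61 ± 0.09 on the log2 scale (SE, adjusted p = 4.18e-05 by edgeR), and on control every female was above every male, with a ratio of means of 1.84, while on MCD 3 of 6 females were (ratio 1.26). Apoa1 differed by −0.49 ± 0.07 (adjusted p = 2.11e-05), and all 6 control females, at 3259 to 5084 CPM, were below all 12 control males, at 5912 to 8068 CPM, while on MCD 3 of 6 females were below all males. Apoc3 differed by 0.36 ± 0.10 (adjusted p = 0.0205), with all 6 control females above all 12 control males but 0 of 6 on MCD, where the ratio of means was 1.04. That call was lost without all of replicate 1 (0.0886) or 2 (0.135), and without control CT16 replicate 3 (0.0604) or control CT20 replicate 3 (0.0599). Apoa4 averaged 871 ± 313 CPM in control females and 455 ± 385 CPM in control males (log2 0.58 ± 0.24 across diets, adjusted p = 0.136), and passed without CT08 (a) (0.71 ± 0.21, adjusted p = 0.0243) and without the 3 libraries that stood apart (0.77, 0.0111).

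Whether the diet change differed between the sexes was tested directly, and none of the 10 passed, against 1.77% of all genes. The female minus male difference in log2 change was −0.54 ± 0.16 for Tm6sf2 (SE, adjusted p = 0.0916 by edgeR), −0.55 ± 0.17 for Apoc3 (0.121) and −1.05 ± 0.44 for Apoa4 (0.296). DESeq2 called Tm6sf2 (adjusted p = 0.0365) and Apoc3 (0.0411). Without CT08 (a), edgeR called Tm6sf2 (−0.57, adjusted p = 0.0410) and Apoa4 (−1.29, adjusted p = 0.0307), and without the 3 libraries that stood apart it called Tm6sf2 (−0.59, 0.0377) and Apoc3 (−0.62, 0.00458), with Apoa4 at −1.19 (0.0562). On MCD the sexes had nearly the same Apoa4 level, 2290 CPM in males and 2371 CPM in females.

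Exon bin counts, deposited for 16 control and 18 MCD liver libraries used here, show whether the parts of a gene moved alike. Usage differed by diet in 3.48% of genes (407 of 11694), and in Apoa2, Apoa5 and Apoe among the 10. In Apoa2 the first 3 bins rose relative to the rest of the gene by 1.21, 1.18 and 1.09 on the log2 scale (gene-level adjusted p = 6.29e-14 by edgeR's diffSpliceDGE with Simes' method), while the gene itself fell. These bins held 0.0621% ± 0.0181 of the gene's bin counts on control (0.0324 to 0.103%, SD, n = 16) and 0.139% ± 0.0267 on MCD (0.0953 to 0.193%, n = 18). The share is small but rests on 110 to 266 counts per control library and 311 to 549 per MCD library, and the 2 groups overlapped only through control CT08 replicate 1, without which the highest control share was 0.0868%. The share was 0.0624% and 0.137% in low mt-Nd6 libraries and 0.0618% and 0.147% in high ones. Because the 3 bins were picked by their diet call in these same libraries, the gap in share describes that call and is no separate support. The Apoa2 call held in every alternative run for exon usage. The exon files number their control CT08 libraries, and no label ties them to columns (a) and (b). Replicate 1 had 81.8 M bin counts and was in the low mt-Nd6 class, as was CT08 (a) with 86.2 M gene counts. Replicate 2 had 44.9 M and was in the high class, as was CT08 (b) with 52.6 M. The exon files give no coordinates. RefSeq places an upstream Apoa2 start, whose promoter is shown above as start 2, over the opposite-strand gene Tomm40l, which had 30.2 ± 19.5 CPM on control and 21.0 ± 16.5 on MCD (log2 −0.59 ± 0.34, adjusted p = 0.164), and whether bins 1 to 3 belong to that start was not tested.

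**Figure D4:**
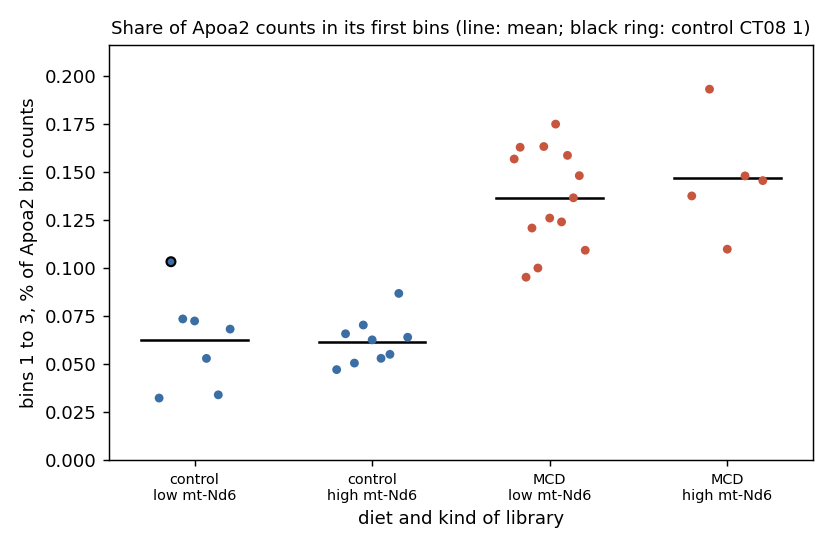
Share of Apoa2 exon bin counts in bins 1 to 3 (vertical axis, percent) in 16 control and 18 MCD liver libraries, split by mt-Nd6 class; points are libraries and the ring marks control CT08 replicate 1. MCD libraries lay at 0.0953 to 0.193% and control libraries at 0.0324 to 0.103%, in bins picked by their diet call in these libraries.

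In Apoa5, bins 2 and 5 fell relative to the gene by 0.44 and 0.80 on the log2 scale (gene-level adjusted p = 2.25e-05), from 0.185% ± 0.054 of its bin counts on control to 0.127% ± 0.034 on MCD. These bins held 1.85 and 0.898 CPM on control. Gm47544, on the opposite strand, shares exon sequence with Apoa5. It had 6.69 ± 6.95 CPM on control and 4.06 ± 6.49 on MCD (log2 −1.28 ± 0.99, adjusted p = 0.310 by edgeR). The split of reads between the 2 genes was not tested. In Apoe, 4 bins, numbers 21 to 24, rose by 0.40 to 0.46 (adjusted p = 0.00618), from 0.0692% ± 0.0063 to 0.0936% ± 0.0094. Both are minor parts of the gene's counts, in bins picked by their diet call in these libraries. The Apoa5 call was lost without replicate 2 (adjusted p = 0.378), and the Apoe call without replicate 2 (0.800) or 3 (0.121). The other 7 genes had a gene-level adjusted p of 1, among them Mttp with 22 bins and Apob with 37.

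Genes that work with these proteins were taken from fixed lists. Each count with TMM scaling is set beside the 46.6% of all genes called and their median of 0.02. The counts with library totals alone are set beside the calls of all genes on that scale, whose median was 0.27. Of 18 partners in VLDL assembly and secretion, 9 passed in the liver, 2 higher and 7 lower, with a median log2 change of −0.14. Aadac, an endoplasmic reticulum lipid hydrolase, fell from 543 ± 95.7 to 230 ± 42.1 CPM (log2 −1.24 ± 0.09, adjusted p = 5.71e-11), and Ces1d, a carboxylesterase that mobilises stored triglyceride, fell from 918 ± 397 to 500.2 ± 319 CPM (−0.99 ± 0.18). Sar1b, the GTPase of the transport vesicles that carry large lipoproteins (−0.63), Smlr1 (−0.52) and Cideb, which aids VLDL lipidation (−0.39), also fell. Soat2, which makes cholesteryl ester for the particle core, rose by 0.44, and P4hb, the subunit that pairs with the Mttp product, rose from 1342 ± 163 to 1639 ± 236 CPM (0.28 ± 0.05, adjusted p = 5.85e-05). With library totals alone 14 partners were called, 9 higher and 5 lower, where 12173 of 20249 genes were called, 87.3% of them higher.

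Of 13 other apolipoprotein and apolipoprotein B editing genes, 12 were tested and 10 passed, 1 higher and 9 lower, with a median of −0.29. Apoc1 fell from 2130 ± 238 to 1459 ± 206 CPM (log2 −0.55), and Apoh (−0.39), Apon (−0.39), Apom (−0.36) and Clu (−0.27) fell with it. Apobr, a receptor for apolipoprotein B that macrophages express, rose from 3.25 ± 1.11 to 5.18 ± 2.04 CPM (0.67 ± 0.14), beside the 7 macrophage markers that rose. With library totals alone the list gave 8 calls, 3 higher and 5 lower, where 12173 of 20249 genes were called, 87.3% of them higher.

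Of 18 genes of lipolysis, remodelling and clearance, 14 passed, 6 higher and 8 lower, with a median of −0.02. Angptl8, which encodes a secreted protein that takes part in the inhibition of lipoprotein lipase, rose from 86.3 ± 71.3 to 337 ± 191 CPM (log2 2.26 ± 0.29, adjusted p = 6.46e-07), and Angptl4, another lipase inhibitor, rose by 0.86 ± 0.20. Lpl itself rose from 22.0 ± 19.1 to 62.3 ± 69.7 CPM (1.44 ± 0.27, adjusted p = 1.27e-04). Hepatic lipase, Lipc, fell from 164 ± 30.9 to 94.0 ± 18.4 CPM (−0.81 ± 0.08), and the lipase maturation factor Lmf1 fell by 0.65. The remnant receptor Lrp1 fell (−0.38), and Scarb1, the HDL receptor, rose by 0.25. With library totals alone 12 were called, 9 higher and 3 lower, where 12173 of 20249 genes were called, 87.3% of them higher.

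Of 17 transcription regulators of these genes, 6 passed, 1 higher and 5 lower, with a median of −0.16. Srebf1, the activator of lipogenic genes, fell from 632 ± 320 to 253 ± 92.7 CPM (log2 −1.23 ± 0.17, adjusted p = 1.91e-06), Mlxipl, which encodes the glucose-responsive factor ChREBP, fell from 632 ± 136 to 451 ± 140 CPM (−0.51 ± 0.10), and Creb3l3, an endoplasmic reticulum-anchored factor, rose by 0.21. Hnf4a had 605 ± 102 CPM on control and 634 ± 61.2 on MCD (0.08 ± 0.05, adjusted p = 0.258), and Foxa2, Ppara and Nr1h4 did not pass. DESeq2 called 10 of the 17, where it called 9710 of 20249 genes. With library totals alone 8 were called, 6 higher and 2 lower, where 12173 of 20249 genes were called, 87.3% of them higher.

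**Figure D5:**
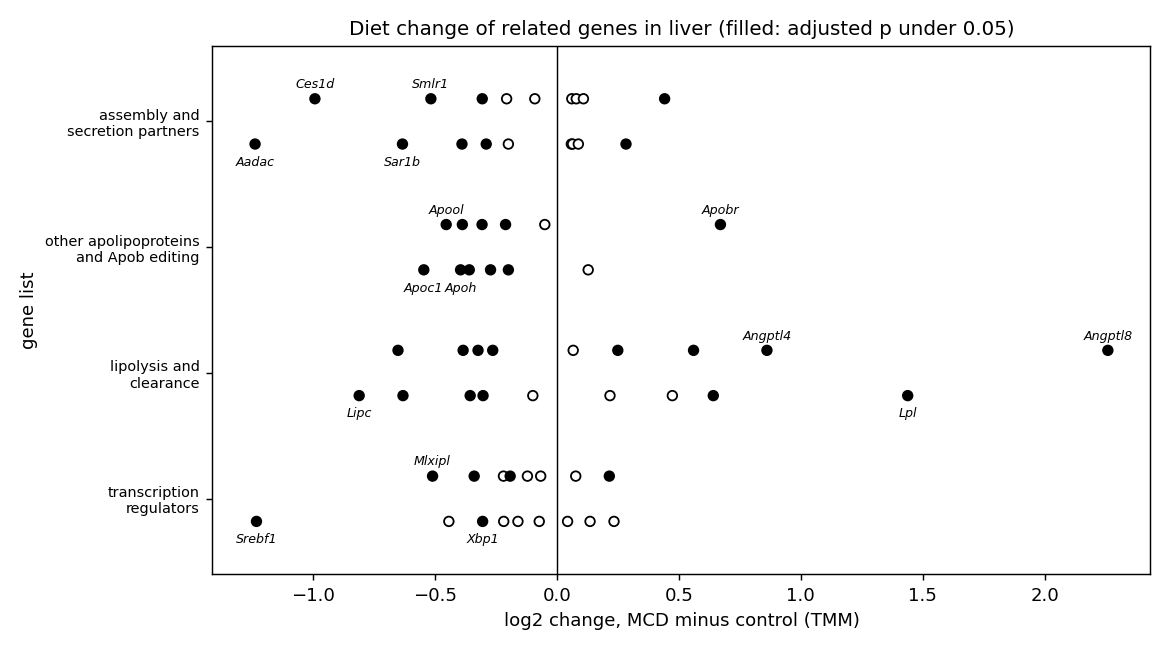
Log2 change on MCD in liver (horizontal axis) of the genes in the 4 lists (vertical axis); each point is a gene, filled where the adjusted p is under 0.05. Called genes per list were 9 of 18 partners, 10 of 12 other apolipoproteins, 14 of 18 lipolysis and clearance genes and 6 of 17 regulators, and Angptl8 lay furthest to the right at 2.26.

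A rhythm was called in 10 of 17 regulators on control and 11 of 17 on MCD, a list that includes the clock genes Nr1d1 and Rora. The counts were 5 and 10 of 18 partners, 3 and 5 of 18 lipolysis and clearance genes, and 0 and 1 of 12 other apolipoproteins. These are set beside the 17.8% and 28.2% of all genes with a rhythm on the 2 diets. The differences between lists and between diets in these counts were not tested.

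In the SCN, Apoe, which astrocytes make in the brain, was present at 2334 ± 304 CPM on control and 2388 ± 313 CPM on MCD (SD, n = 18 each), and control liver had 6.35 times the control SCN level, a ratio across tables that were scaled separately. Mttp stood at 34.4 ± 6.7 and 36.1 ± 4.4 CPM, and Apoa2 at 2.43 ± 1.08 and 2.18 ± 0.85 CPM, with 1 control library at 0. All 7 SCN markers were detected, summing to 1630 to 3224 CPM on control and 1725 to 4212 on MCD, and 3 of 8 hepatocyte markers were in the table, summing to 26.0 to 50.9 CPM on control. None of the 3 genes was called for diet (adjusted p = 1 by edgeR), where 0.0635% of 15759 genes were, nor for a rhythm on control or MCD, where 15.1% and 16.1% were, nor for a rhythm that differed by diet, where 0.0127% were. Apoe was higher in females by 0.23 ± 0.05 on the log2 scale (adjusted p = 0.00635), where 9.89% of genes were called, and that call was lost without replicate 1 (0.203). No gene of the 4 lists was called for diet in the SCN (0 of 13, 7, 12 and 8 tested).

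The diet change in the liver was then compared with that in the SCN over 14491 genes measured in both, of which 34.7% were called. The model had no term for the mouse, so liver and SCN libraries were treated as independent of each other. Mttp differed, with a liver minus SCN log2 change of −0.56 ± 0.11 (SE, adjusted p = 4.40e-05 by edgeR): 441 to 315 CPM in liver beside 34.4 and 36.1 CPM in the SCN. For Apoe the difference was −0.16 ± 0.07 (adjusted p = 0.0708), which passed without CT08 (a) (−0.17, adjusted p = 0.0401) and turned to 0.10 with library totals alone. For Apoa2 it was −0.17 ± 0.23 (adjusted p = 0.619) and 0.087 with library totals alone.

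Patterns across the 36 liver libraries were compared with Pearson's r over 13840 genes, as a description in which all points share the diet contrast and the library scaling. The genes most like Apoa4, the member with the largest diet change, were AI506816 (r = 0.92), Ifi27l2b (0.91), the glycerol-3-phosphate acyltransferase gene Gpat3 (0.91), Cbr1 (0.91) and the ferritin heavy chain gene Fth1 (0.90). Gpat3 had 3.69 CPM on control and 23.9 CPM on MCD. The second gene was taken by the widest 24 h range in a separate cosine fit to the log2 CPM of the control libraries, which was that of Apoc2 (0.48, peak at 14.1 h, beside 0.43 for Apoa4). In the edgeR fit the order was the other way, with control ranges of 0.40 for Apoc2 (adjusted p = 0.723) and 0.56 for Apoa4 (0.648), so neither had a called rhythm. The genes most like Apoc2 were Samd4b (0.80), Aebp2 (0.79), Htra3 (0.78), Gpx4 (0.78) and Btbd19 (0.77).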

How the data were processed

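The gene tables hold raw read counts per gene as the authors deposited them, and the exon files hold raw counts per exon bin, also deposited by the authors. Trimmomatic, HISAT2, StringTie, DESeq2 and the build GRCm39 are named in the submitters' processing notes, and libraries were poly(A)-selected with a stranded kit per the labels' protocols. The tools' versions, and the use of strand in counting, are not stated in those notes. Samples were grouped by their labels. The 2 control CT08 columns that share a name are written (a) and (b). The mice of a group are separate animals only as far as the labels say, so p-values measure the spread between these libraries.

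From the counts, genes were kept by edgeR's filterByExpr (minimum count 10), scaled by TMM and tested with edgeR 4.0.16 (R 4.3.3), in 1 quasi-likelihood model per tissue over 12 diet and time groups with a term for sex. Adjustment was by Benjamini-Hochberg over all genes tested (20249 in liver, 15759 in SCN). Exon usage was tested with diffSpliceDGE on 34 liver files of 472109 bins, and control CT00 replicates 1 and 2 and the SCN exon files were not used. The procedure was tested on simulated counts. Alternatives were DESeq2 1.42.0, limma 3.58.1, other scalings, no filter, other model terms and libraries left out, 3 of them together in an alternative chosen after seeing the data. Positions come from the GENCODE M21 annotation of GRCm38, exon lengths are unions of its exons, and no coordinate was converted between builds. Promoters come from RefSeq on GRCm38.p6, with 8 of 10 genes matched. The 10 genes and the lists were chosen with earlier results of these data known. Genes outside the lists were named by likeness: the 5 with the highest Pearson r to the member with the largest diet change and to the member with the widest 24 h range on control in a cosine fit to log2 CPM (prior count 2), among genes of at least 1 CPM on average. A few genes of the lists are counted but not reported singly here.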

Additional observations from a re-analysis of the deposited data

Results flagged for a closer look

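The diet change of Mttp differed between the tissues: liver minus SCN was −0.56 on the log2 scale (SE 0.11, adjusted p = 4.40e-05 by edgeR). This came from a direct test of the difference, in a model with no term for the mouse. Outlying single libraries were looked for only in groups of 4 to 10 samples, which here are the 6 females of each diet, and none was found among 26 such groups.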

How the results depend on the processing

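Most settings changed 1 choice at a time. DESeq2 changed the test together with its own size factors, the replicate block changed 2 choices (below), and leaving out replicate 3 removed the females and with them the term for sex. All 9 members called for diet in liver were called with DESeq2, limma and RLE factors, and without control CT08 (a), MCD CT04 replicate 1 and MCD CT12 replicate 2 together, an alternative chosen after seeing the data. Of these 9, 8 were called without the low-count filter, without a term for sex, with the replicate block or with a term for the mt-Nd6 class, and 6 with any replicate number left out. Library totals called 8 members, 7 of them among the 9 and 6 in the same direction. The 8 calls at single times became 13 with DESeq2, 14 with library totals and 0 to 15 with libraries left out. Rhythm on control, 0 members, became 1 with DESeq2, 1 with RLE factors, 2 with library totals and 0 to 2 with libraries left out. Rhythm on MCD, 1 member, became 2 with library totals, 0 without a term for sex and 0 to 1 with libraries left out. The sex difference, 3 members, became 5 with library totals. Sex by diet, 0 members, became 2 with DESeq2, 1 with library totals and 0 to 2 with libraries left out. Exon usage, 3 members, became 1 to 3 with libraries left out, and liver against SCN, 1 member, became 1 to 2.

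Library totals reversed Apob (0.21), Apoe (0.13), Vmp1 (0.16), Apof (0.040), Apoo (0.20), A1cf (0.057), Foxo1 (0.18) and Nr1h3 (0.19) in the liver diet change, and Apoa2 (0.087) and Apoe (0.10) in liver against SCN. That setting moves the median of all genes to 0.27, with 87.3% of 12173 calls higher against 54.4% of 9426. With libraries left out, Apob ran from −0.11 to 0.0034 and the liver against SCN value of Apoa2 from −0.44 to 0.10.

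The replicate number names the sex as well, so the replicate block took the place of the sex term and left out the unnumbered columns. It gave 9 calls at single times and 2 members in liver against SCN (Mttp and Apoe, −0.18, adjusted p = 0.0483), and it lost Tm6sf2 (adjusted p 0.0745, against 0.0729 for the sex term on the same columns). Same-numbered control and MCD libraries of a time were also correlated, on residuals from group and sex. Their r ran from −0.40 to 0.17 in liver and from −0.25 to 0.39 in the SCN. It was over 0.1 in 2 of 16 liver pairs and 6 of 16 SCN pairs. With 3 libraries a group and no test of r, this cannot exclude that the numbers pair the samples.

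Over all genes, counts that moved by more than 1.5 times included CT08 in liver (263, 650 with DESeq2, 140 without a term for sex, 1212 without CT08 (a)), rhythm difference (986, 2017 with DESeq2), sex by diet (359, 734 with DESeq2), SCN diet effect (10, 44 with DESeq2, 19 with limma) and exon usage (407, 669 with a gene-level F test). With a replicate number left out, liver calls at single times ran from 84 to 1444 at CT00, 330 to 2450 at CT04, 8 to 54 at CT08, 54 to 2000 at CT12, 323 to 961 at CT16 and 237 to 1495 at CT20. Without the 3 libraries named above the counts were 3826 at CT00 (2550 with all libraries), 1904 at CT08, 4126 at CT16 (2531) and 3809 at CT20 (2288), 1490 for rhythm difference, 3956 for the sex difference (1911) and 714 for sex by diet. The causes were not tested.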
